A study of Mus musculus with 120 samples.

Results

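The 9 genes described here encode transcription factors of the naive pluripotent state: Nanog, Zfp42, Nr0b1, Klf2, Klf4, Klf5, Tfcp2l1, Tbx3 and Prdm14. They were chosen by name, for their known role, and make up 9 of the 23154 genes in each of 2 deposited count tables. Naive pluripotency is the state of the early epiblast and of mouse embryonic stem cells held with leukaemia inhibitory factor (LIF), whose signal runs through the kinase JAK and the factor STAT3. The factors bind each other's regulatory regions and those of Pou5f1 and Sox2, and most are switched off when the epiblast implants and becomes primed for gastrulation. Several are also used outside the epiblast, in trophoblast, endoderm or germ cells.

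The series holds 120 samples of the mouse gastrula, and RNA was sequenced in 28 libraries. Of these, 18 came from ICR embryos, with 2 libraries a group. The E6.5 (6.5 days post coitum) groups are labelled Epi and ExE, the E7.0 groups A, P and ExE, and the E7.5 groups A, P, AM and ExE. Epi and ExE are the usual short forms for epiblast and extra-embryonic ectoderm, the proximal trophoblast tissue, whereas A, P and AM are not spelled out in the labels. The other 10 libraries came from E14/TG2A mouse embryonic stem cells, either wild type (WT) or carrying a CRISPR-Cas9 deletion of an enhancer named Enh9E (KO). Cells were taken as stem cells on day 0 (D0) and as neural progenitors on day 8 of differentiation (D8), with 2 WT and 3 KO libraries on each day. Nothing in the labels says that libraries of a group are independent embryos or cultures, or that the KO cells are more than a single clone. The p-values therefore measure the spread between these libraries only, estimated over all groups of a table, and it may be technical. Replicates of the E6.5 and E7.5 groups differed in Y-linked RNA, as given below, so there the spread is not technical alone. In such bulk samples, fewer cells of a type and less RNA per cell cannot be told apart.

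To show what lies in front of members that move in opposite directions between tissues, and in front of Klf4, which differed most between KO and WT cells at D8, the 250 bases before 4 transcription starts are printed 5′ to 3′ along the gene's strand (RefSeq, GRCm38.p6). Capitals mark exact matches, on either strand, to the 7 motifs searched. Kruppel-like factors were represented by GGGTGTG and, as a second form of the same element, by GGGCGTG. Nuclear receptors such as Esrrb were represented by AAGGTCA, and POU factors such as the product of Pou5f1 by ATGCAAA. Sox factors were represented by ACAAAG. The E-box was searched as CACCTG, and the TATA box was searched as TATAAA.
Nanog, chr6:122707239-122707488, plus strand: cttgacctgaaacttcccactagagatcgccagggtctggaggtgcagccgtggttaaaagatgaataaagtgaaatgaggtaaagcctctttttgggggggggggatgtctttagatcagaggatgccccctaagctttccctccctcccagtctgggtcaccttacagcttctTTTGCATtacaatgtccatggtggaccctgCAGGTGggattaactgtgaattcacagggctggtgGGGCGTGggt
Zfp42, chr8:43307010-43307259, minus strand: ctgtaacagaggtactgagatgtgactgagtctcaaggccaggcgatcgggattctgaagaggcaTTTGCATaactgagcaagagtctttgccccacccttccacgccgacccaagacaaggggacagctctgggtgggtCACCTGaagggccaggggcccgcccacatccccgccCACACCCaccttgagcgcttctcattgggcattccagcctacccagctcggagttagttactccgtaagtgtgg
Nr0b1, chrX:86191525-86191774, plus strand: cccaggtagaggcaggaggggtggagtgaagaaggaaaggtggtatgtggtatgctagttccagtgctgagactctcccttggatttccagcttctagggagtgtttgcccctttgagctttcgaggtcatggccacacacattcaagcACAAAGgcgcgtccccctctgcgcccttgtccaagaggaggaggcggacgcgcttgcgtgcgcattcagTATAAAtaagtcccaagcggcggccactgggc
Klf4, chr4:55532476-55532725, minus strand: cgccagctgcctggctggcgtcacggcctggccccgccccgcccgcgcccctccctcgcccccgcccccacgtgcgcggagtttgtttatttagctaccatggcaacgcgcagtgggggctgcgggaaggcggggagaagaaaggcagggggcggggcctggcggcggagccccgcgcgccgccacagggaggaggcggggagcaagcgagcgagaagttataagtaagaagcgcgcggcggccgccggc

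The Nanog and Zfp42 windows each held a POU, a Kruppel-like and an E-box match. The POU match lay 75 bases before the printed start in Nanog and 185 bases before that in Zfp42. The table holds another Nanog start further on, from which the same match lies at 151 bases. Nr0b1 held a Sox match at 101 bases and a TATA box at 32 bases, and Klf4 held none of the 7 motifs in a window of 74.0% G and C. In the same 250 bases of all 32851 promoter windows of the table, the POU motif occurred in 4.12%, GGGTGTG in 6.93%, GGGCGTG in 7.55%, the E-box in 17.2%, the Sox motif in 16.5%, the TATA box in 12.4% and AAGGTCA in 4.08%, and the median G and C content was 52.4%. The table held windows for 6 of the 9 members. Of the 2 not printed, Tfcp2l1 held GGGCGTG matches at 60 and 46 bases, E-boxes at 120 and 40 bases and a TATA box at 28 bases, the nearer GGGCGTG sharing bases with an E-box. Klf2 held none. A match is a string of letters and not a shown binding site.

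Totals ran from 5145033 to 17138732 counts per embryo library and from 5962176 to 13182032 per cell library, and levels are given as CPM, counts divided by the TMM-scaled library size, which compares libraries and not genes. The ExE label was borne out by Elf5, the defining trophoblast stem cell factor, at 16.5 to 78.3 CPM in the 6 ExE libraries and 0 to 0.793 CPM in the other 12. The 10 trophoblast markers summed to 224 to 394 CPM in ExE and 17.4 to 120 CPM elsewhere. Among them Cdx2, Gata3 and Hand1 overlapped between the tissues. They reached 10.2, 24.4 and 39.8 CPM in ExE and 29.1, 35.5 and 40.3 CPM elsewhere. Pou5f1 lay at 3.38 to 24.2 CPM in ExE and 21.5 to 471 CPM elsewhere. Visceral endoderm, the layer that surrounds both tissues, was present in most libraries, with 10 markers summing to 4925 to 15981 CPM in ExE and 17.4 to 7128 CPM in the rest. Markers of primordial germ cells summed to 64.7 to 156 CPM in ExE and 31.2 to 60.9 CPM elsewhere. At each stage 1 of the 7 tested was called higher in ExE, Tfap2c, which is also a trophoblast factor and lay at 27.1 to 118 CPM in ExE and at most 4.06 CPM elsewhere, and 2, 1 and 0 were called lower. The KO libraries stood apart from WT in more than the enhancer: Ddx3y, a Y-linked gene, lay at 0.106 to 0.411 CPM in KO and at least 32.5 CPM in WT, so what else differs between the lines cannot be told apart from the deletion.

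In the embryo, Zfp42, Nr0b1, Klf5 and Tfcp2l1 were called higher in ExE than in the other regions at each of the 3 stages, and Nanog was called lower at E6.5 and E7.5. Of the 9 members, 8 passed the filter on low counts, and Prdm14 did not. Klf2 passed only through its ExE libraries, so any call of it as higher in ExE follows in part from the filter. It is kept in the counts and medians below. A gene was called at a Benjamini-Hochberg adjusted p under 0.05 in edgeR's quasi-likelihood test over all 14403 genes tested, which gives each embryo adjusted p except those named as coming from a leave-out, a fit of some groups alone, a replicate block or DESeq2, most of which tested other numbers of genes. At E6.5, 4 members were called higher in ExE than in Epi and 1 lower, where 3.69% of all tested genes were called higher and 5.24% lower. At E7.0, 7 were called higher than the mean of A and P and none lower, against 10.0% and 8.14% of all genes. At E7.5, 5 were called higher than the mean of A, AM and P and 1 lower, against 13.4% and 7.91%. The median log2 difference of the 8 members was 2.94, 3.43 and 2.38 at the 3 stages, and that of all tested genes 0.03, -0.04 and -0.02.

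**Figure D1:**
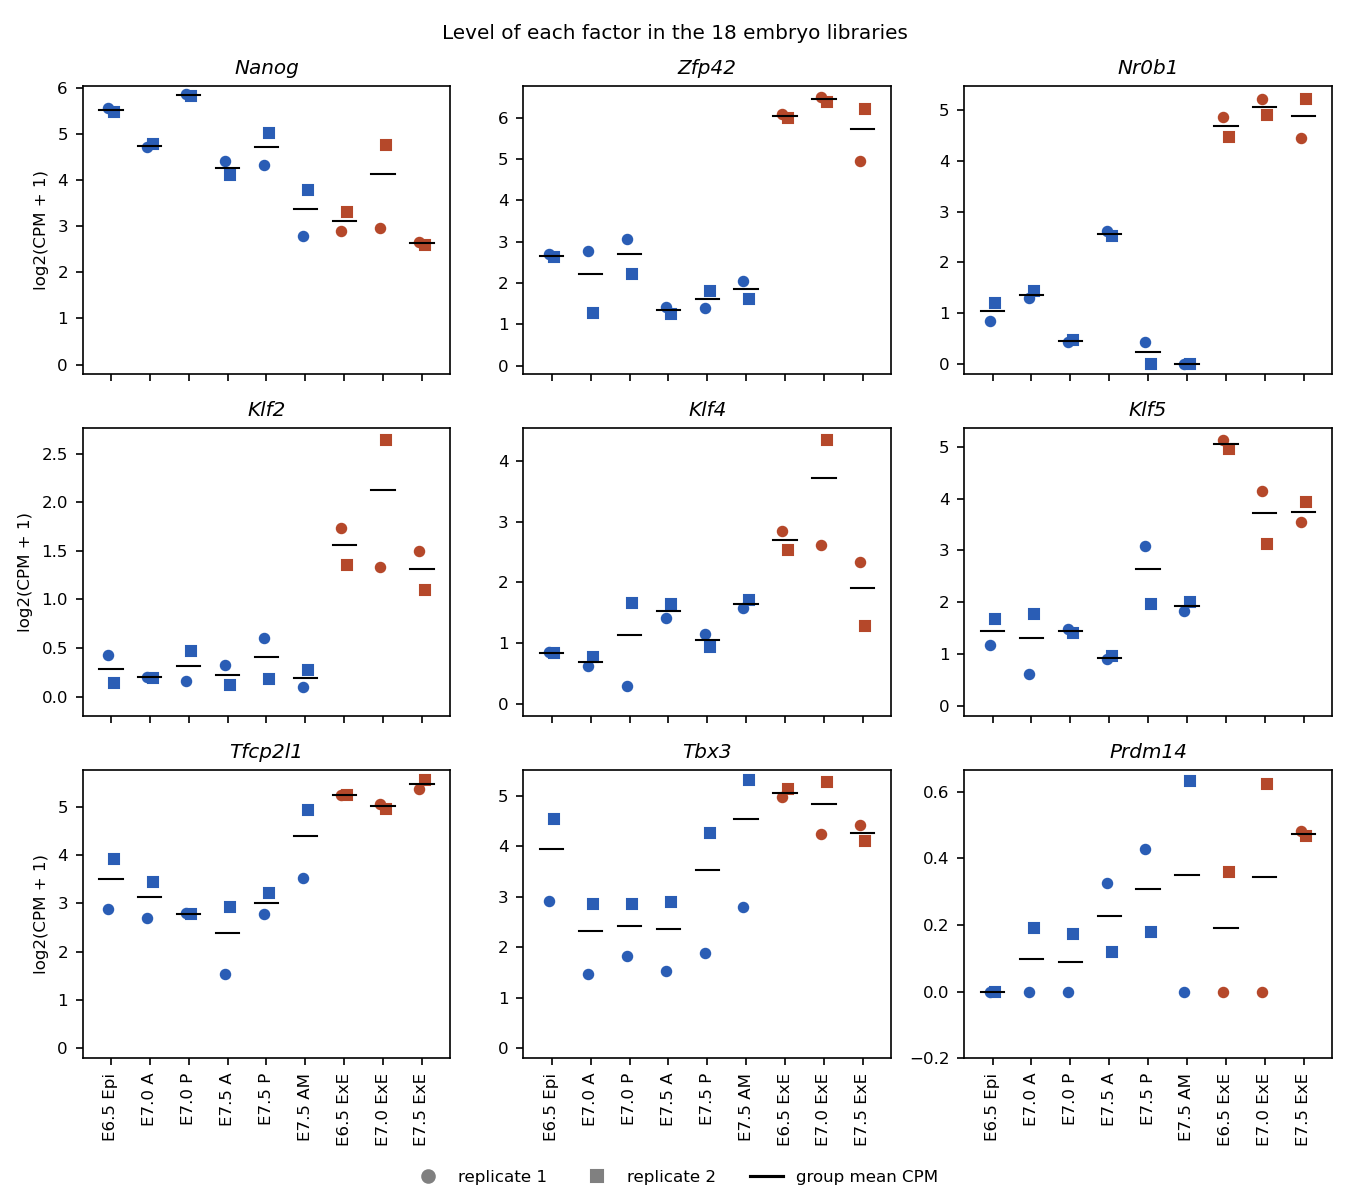
Level of each factor in the 18 embryo libraries, as log2(CPM + 1) on the vertical axis, with the 9 groups along the horizontal axis. Points are libraries (circles replicate 1, squares replicate 2, ExE in red and other regions in blue) and black lines group means; Zfp42, Nr0b1 and Klf2 are higher in all 6 ExE libraries than in the other 12.

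Nanog, a homeodomain factor that is switched on again in the proximal and posterior epiblast at gastrulation, is at chr6:122707489-122714633. It measured 46.3 and 43.1 CPM in E6.5 Epi, 25.1 and 26.4 CPM in E7.0 A and 57.6 and 55.3 CPM in E7.0 P. At E7.5 it measured 20.3 and 16.2 CPM in A, 19.1 and 31.2 CPM in P and 5.90 and 12.7 CPM in AM. In ExE it measured 6.39 and 8.88 CPM at E6.5, 6.83 and 26.1 CPM at E7.0 and 5.33 and 5.06 CPM at E7.5. E7.0 P was the highest group, followed without overlap by Epi, and the ExE libraries were low apart from replicate 2 at E7.0, which lay within the range of A and P of E7.0. The difference between ExE and Epi at E6.5 was -2.56 ± 0.51 (log2, SE; adjusted p = 0.00468), and the call was lost without ExE replicate 1 (adjusted p = 0.109). At E7.5 it was -1.64 ± 0.45 (adjusted p = 0.0152), lost without ExE replicate 1 (adjusted p = 0.0757) or 2 (adjusted p = 0.162). At E7.0 the difference of -1.24 ± 0.44 was not called (adjusted p = 0.0618), but was in DESeq2 (adjusted p = 0.0477) and with the replicate number as a block (-1.36, adjusted p = 0.0255). Without ExE replicate 2 it was -2.50 with an adjusted p of 0.00359. That library, the shallowest of the embryo table, was also high for Klf2 and Klf4, as given below.

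Zfp42 (Rex1), a zinc finger protein used as a reporter of the naive state, is at chr8:43295067-43307009. It measured 67.1 and 62.7 CPM in ExE at E6.5, 89.6 and 82.5 CPM at E7.0 and 29.8 and 73.3 CPM at E7.5. The other 12 libraries lay between 1.37 and 7.36 CPM, so the tissues did not overlap. The log2 differences were 3.61 ± 0.56 at E6.5 (adjusted p = 5.57e-04), 4.22 ± 0.43 at E7.0 (adjusted p = 1.09e-05) and 4.67 ± 0.39 at E7.5 (adjusted p = 8.00e-07). All 3 calls remained when any 1 of the compared libraries was left out.

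Nr0b1 (Dax1), an X-linked orphan nuclear receptor that acts mainly as a repressor, is at chrX:86191775-86195947. In ExE it measured 28.3 and 21.3 CPM at E6.5, 36.1 and 28.8 CPM at E7.0 and 20.8 and 36.2 CPM at E7.5. It measured 0.799 and 1.29 CPM in Epi, 1.45 and 1.70 CPM in E7.0 A and 0.345 and 0.381 CPM in E7.0 P. At E7.5 it measured 5.11 and 4.70 CPM in A, 0.345 and 0 CPM in P and 0 in both AM libraries. Every ExE library was above every other library, and E7.5 A was the highest of the remaining groups with no overlap. The log2 difference between ExE and the other regions was 4.55 ± 0.58 at E6.5 (adjusted p = 1.42e-04) and 5.41 ± 0.46 at E7.0 (adjusted p = 2.38e-06). At E7.5 the fitted value of 6.99 ± 0.47 (adjusted p = 1.96e-07) takes in AM, which had no counts, and so depends on the small prior count that edgeR adds. In the E6.5 and E7.5 groups, replicate 2 had the Y-linked Ddx3y at 0 to 0.141 CPM and replicate 1 at 57.0 CPM or more. The part of this in the levels of the X-linked Nr0b1 was not tested.

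The 3 Kruppel-like factors are zinc finger activators with overlapping functions in stem cells, and Klf5 is also needed in early trophoblast. Klf5, at chr14:99298691-99313412, measured 34.2 and 30.3 CPM in ExE at E6.5, 16.7 and 7.74 CPM at E7.0 and 10.7 and 14.2 CPM at E7.5. In the other regions it lay between 0.533 and 7.51 CPM, with the highest value in replicate 1 of E7.5 P, so ExE was above all of them. Its log2 difference was 4.21 ± 0.67 at E6.5 (adjusted p = 7.19e-04), 3.0 ± 0.51 at E7.0 (adjusted p = 8.68e-04) and 2.39 ± 0.44 at E7.5 (adjusted p = 0.00132), called in every leave-out. The change of this difference from E6.5 to E7.5 was -1.82 ± 0.79 and not called (adjusted p = 0.447).

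Klf4, at chr4:55527137-55532475, measured 6.21 and 4.79 CPM in ExE at E6.5, 5.14 and 19.3 CPM at E7.0 and 4.06 and 1.43 CPM at E7.5. The other libraries lay between 0.230 and 2.27 CPM, so at E7.5 the tissues overlapped. The E7.0 difference of 3.86 ± 0.71 was called (adjusted p = 0.00157), and remained so without ExE replicate 2 at 2.62 (adjusted p = 0.0409). The E6.5 difference of 2.78 ± 0.89 missed the threshold (adjusted p = 0.0616) and passed it in DESeq2 (adjusted p = 0.0176). Klf2, at chr8:72319062-72321654, rested on 1 to 6 counts per library outside ExE and 11 to 29 counts within it. With a minimum count of 10 in the filter, Klf2 entered the test only through ExE, and its calls partly follow from that. It measured 2.34 and 1.55 CPM in ExE at E6.5, 1.53 and 5.22 CPM at E7.0 and 1.83 and 1.15 CPM at E7.5, against at most 0.518 CPM elsewhere. No ExE library of Klf2 overlapped the rest. It was called at E7.0 (4.10 ± 0.90, adjusted p = 0.00528; 2.98 and 0.0809 without ExE replicate 2) and at E7.5 (2.81 ± 0.78, adjusted p = 0.0165). The E7.5 call was lost without AM replicate 1 (adjusted p = 0.0518), ExE replicate 1 (0.154) or ExE replicate 2 (0.0843), and at E6.5 the difference of 3.11 ± 1.14 was not called (adjusted p = 0.0993).

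**Figure D2:**
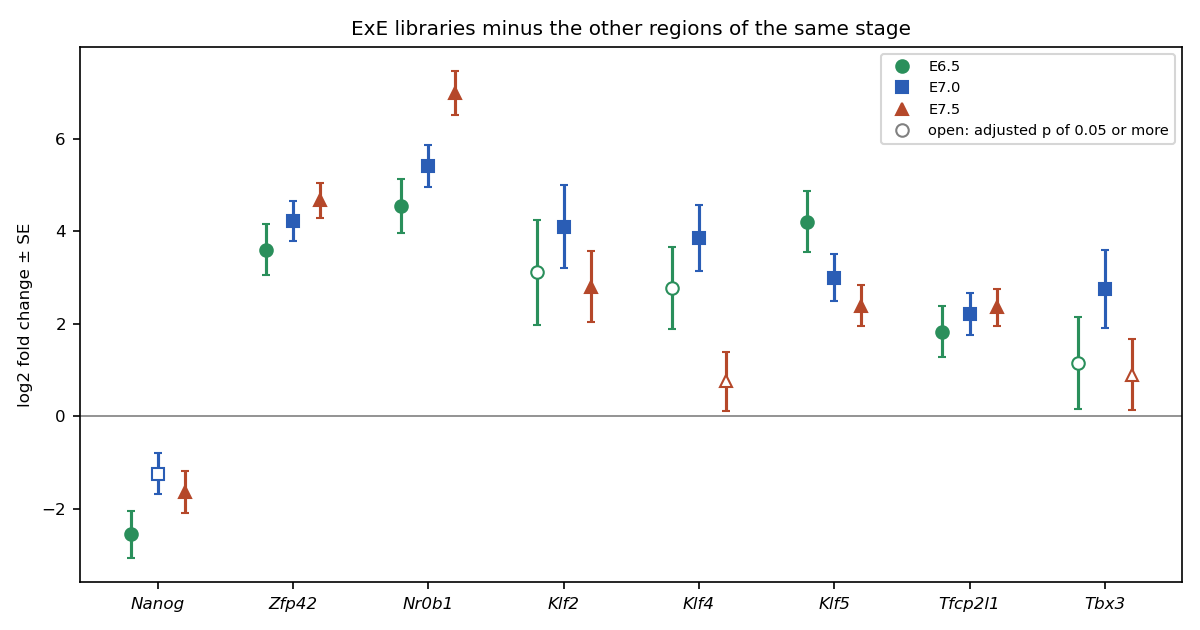
Difference between the ExE libraries and the other regions of the same stage for the 8 tested factors, as log2 fold change ± SE on the vertical axis (green E6.5, blue E7.0, red E7.5). Filled symbols have an adjusted p under 0.05 and open symbols do not; Nanog lies below 0 at the 3 stages and the other 7 factors above it.

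Tfcp2l1, a CP2-family factor downstream of STAT3, is at chr1:118627923-118685168. It measured 36.6 and 36.8 CPM in ExE at E6.5, 32.2 and 30.1 CPM at E7.0 and 40.4 and 45.9 CPM at E7.5. The other libraries lay between 1.92 and 14.2 CPM apart from replicate 2 of E7.5 AM, at 29.5 CPM, just under the lowest ExE library of 30.1 CPM. The log2 difference was 2.22 ± 0.45 at E7.0 (adjusted p = 0.00322) and 2.36 ± 0.40 at E7.5 (adjusted p = 6.75e-04). At E6.5 it was 1.83 ± 0.55 (adjusted p = 0.0476), and leaving out any 1 of the 4 libraries ended the call: adjusted p = 0.413 without Epi replicate 1, 0.0663 without Epi replicate 2, 0.190 without ExE replicate 1 and 0.158 without ExE replicate 2.

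Tbx3, a T-box repressor linked to PI3K and LIF signalling and to endoderm, is at chr5:119670534-119684724. It measured 30.2 and 34.1 CPM in ExE at E6.5, 18 and 37.5 CPM at E7.0 and 20.4 and 16.2 CPM at E7.5. Replicates of the other groups lay far apart: 6.51 and 22.3 CPM in Epi, 1.75 and 6.24 CPM in E7.0 A, 2.53 and 6.22 CPM in E7.0 P, 1.87 and 6.41 CPM in E7.5 A, 2.68 and 18.2 CPM in E7.5 P and 5.90 and 38.7 CPM in E7.5 AM. ExE was above the rest at E6.5 and E7.0, and overlapped them at E7.5. The differences of 1.15 ± 0.99 at E6.5 (adjusted p = 0.535) and 0.90 ± 0.77 at E7.5 (adjusted p = 0.447) were not called. The E7.0 difference of 2.76 ± 0.85 was called (adjusted p = 0.039), but not without A replicate 1 (adjusted p = 0.124), ExE replicate 2 (0.293), P replicate 1 (0.127) or P replicate 2 (0.0671). Its antisense neighbour Tbx3os2 is also in the tables, and the use of strand in counting is not given, so their reads may be mixed.

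The spread of Tbx3 moved with visceral endoderm RNA. In each of the 6 embryonic groups, the library with the larger sum of the 10 visceral endoderm markers also had the higher Tbx3 (6 of 6 pairs), and Tfcp2l1 did so in 5 of 6. That library was replicate 2 in every group, so the marker order cannot be told apart from the replicate number. In the E6.5 and E7.5 groups, replicate 2 was also the library nearly without Ddx3y. The E7.5 AM pair is the widest example for Tbx3, with 5.90 CPM at a marker sum of 1397 CPM and 38.7 CPM at 7128 CPM. Over these 12 libraries the correlation of log2(CPM + 1) with the log2 marker sum was 0.68 for Tbx3 and 0.77 for Tfcp2l1, over libraries that share embryos' stages and regions. The other tested members followed the order in 1 to 4 of 6 pairs, from Zfp42 (1) and Klf2 (2) to Klf4 and Klf5 (4). ExE libraries held a larger sum of these markers than the other regions at E7.0 and E7.5. At E6.5 the sums overlapped, at 4925 and 7206 CPM in ExE and 3243 and 5515 CPM in Epi. The part of visceral endoderm in the Tbx3 and Tfcp2l1 differences was not tested.

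**Figure D3:**
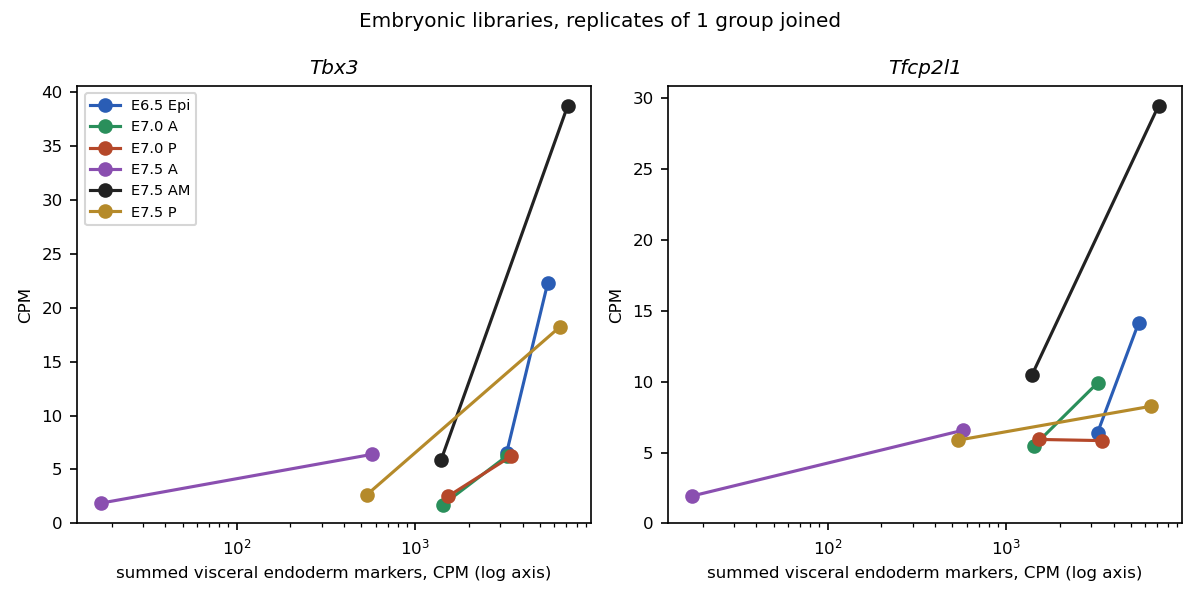
Level of Tbx3 (left) and Tfcp2l1 (right) in CPM against the summed level of 10 visceral endoderm markers in CPM on a log axis. Points are the 12 embryonic libraries and lines join the 2 replicates of a group. Every Tbx3 line rises, and 5 of 6 Tfcp2l1 lines do. The right-hand end of each line is replicate 2.

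Prdm14, a PR-domain regulator best known from primordial germ cells, is at chr1:13113428-13127163 and was close to the detection limit. It had 0 to 5 counts in each ExE library and 0 to 8 in each of the others, with none in either Epi library, and it was not tested.

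Within the embryonic regions few members were called. Here and below, the shares of all genes refer to the adjusted p. The share of all genes at an unadjusted p under 0.05 was not counted, so member counts at that cutoff have no background. Between P and A at E7.0, 0 of 8 were called by edgeR and 0 by DESeq2, against 0.00694% of all genes. At an unadjusted p under 0.05 there were 2, Nanog higher in P (1.13 ± 0.48) and Nr0b1 lower (-2.09 ± 0.65), each with an adjusted p of 1 and no overlap of libraries. Between P and A at E7.5, 1 of 8 was called against 0.236% of all genes: Nr0b1, lower in P by -4.54 ± 0.69 (adjusted p = 0.0116) from 4 counts in P. That call was lost without A replicate 1 (adjusted p = 0.0555) or P replicate 2 (0.0750), and in a fit of these 2 groups alone (0.0887). Klf5 was higher in P (2.54 ± 0.65, adjusted p = 0.132, and 0.00944 in DESeq2).

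Between AM and A, 1 of 8 was called against 1.57% of all genes. It was Nr0b1, at least 48.1-fold lower in AM by a floor of 3 counts over the 2 AM libraries (adjusted p = 4.52e-04, and 0.0820 in a fit of these 2 groups alone). Tfcp2l1 was higher in AM by 2.26 ± 0.57 and missed the threshold (adjusted p = 0.0546), which it passed without AM replicate 1 (0.0327) or A replicate 2 (0.0207). The summed visceral endoderm markers lay at 17.4 and 575 CPM in A and 1397 and 7128 CPM in AM, though 0 of the 10 were called here, and their part in the Tfcp2l1 difference was not tested. Between AM and P, 0 of 8 were called by edgeR or DESeq2 against 0.111%, and 3 had an unadjusted p under 0.05, among them Nanog, lower in AM by -1.43 ± 0.49.

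From E6.5 Epi to the mean of A and P at E7.0, 0 of 8 members were called by edgeR or DESeq2 and 0 had an unadjusted p under 0.05, as 0% of all genes were called. The next 3 comparisons share the E6.5 Epi libraries as their control. In E7.5 A, 0 of 8 were called against 1.42% of all genes, with 4 at an unadjusted p under 0.05, and DESeq2 called 1. These 4 were Nr0b1, higher by 2.21 ± 0.55 (adjusted p = 0.0591, and 0.00231 in DESeq2), and Nanog, Zfp42 and Tfcp2l1, lower by -1.29 ± 0.49, -1.79 ± 0.56 and -1.30 ± 0.56. In E7.5 P, 0 of 8 were called by edgeR or DESeq2 against 0.743%, with 3 at an unadjusted p under 0.05. In E7.5 AM, 2 of 8 were called, both lower, against 2.50% of all genes in either direction. Of the 14403 genes tested, 147 were called lower and 213 higher. Nanog was lower by -2.27 ± 0.50 (adjusted p = 0.0265), lost without Epi replicate 1 (0.156), Epi replicate 2 (0.142) or AM replicate 1 (0.275). Nr0b1 was at least 10.3-fold lower (adjusted p = 0.00810), lost without Epi replicate 2 (0.0872) or AM replicate 1 (0.0760).

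Within ExE, 0 of 8 members were called between E6.5 and E7.5 by edgeR or DESeq2, against 0.972% of all genes, with 1 at an unadjusted p under 0.05: Klf5, lower at E7.5 by -1.37 ± 0.58 (adjusted p = 0.319). No member was called for a change of the ExE difference from E6.5 to E7.5 (0 of 8 in either tool, 2 at an unadjusted p under 0.05, 0.187% of all genes). The same held for a change of the P minus A difference from E7.0 to E7.5 (0 of 8 in either tool, 2 at an unadjusted p under 0.05, 0.0278% of all genes).

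Other genes of the network were read in ExE against the other regions at the 3 stages. Esrrb, an orphan nuclear receptor of both naive cells and trophoblast stem cells, was at 12.9 to 46.8 CPM in ExE and at most 0.799 CPM elsewhere, with log2 differences of 6.13 ± 0.66, 6.84 ± 0.53 and 6.41 ± 0.46. Of the 13 tested genes in the list of other naive genes, 1 was called higher and 2 lower at E6.5, 4 and 0 at E7.0, and 4 and 0 at E7.5. The 2 lower at E6.5 were Fgf4, a growth factor of the epiblast, and Gdf3. Stat3, the transducer of LIF, was higher at each stage (1.96, 2.81 and 1.42), and of the 7 tested genes of LIF and STAT3 signalling 1, 4 and 1 were called higher and none lower. Of 14 primed epiblast genes, 0, 0 and 2 were called higher and 9, 7 and 6 lower, Otx2 by -6.79, -5.17 and -3.93. Of 6 shared core factors, 1, 5 and 3 were called lower and none higher, Pou5f1 by -6.17, -3.93 and -3.87. Of 14 other Kruppel-like factors, 1, 3 and 5 were called higher and 2, 1 and 1 lower, with Klf8 higher at each stage (2.66, 2.41 and 1.48) and Klf13 lower (-1.0, -1.03 and -0.69). Trophoblast markers were called higher in 8, 10 and 7 of 10, and visceral endoderm markers in 0, 0 and 3 of 10.

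Genes whose pattern over the 18 embryo libraries was most like a member's were ranked by Pearson correlation of log2(CPM + 1). The closest were AU018091 for Zfp42 (0.97), Ddah1 for Nr0b1 (0.96), Podxl for Tfcp2l1 (0.97), Ppargc1b for Klf4 (0.95), Wnt6 for Klf5 (0.94), Ndel1 for Tbx3 (0.94) and Hpca for Nanog (0.87). The libraries share tissue, stage and depth, and with a pseudocount of 0.1 in place of 1, between 1 and 3 of the 3 closest genes of each member were shared. By Spearman's rank correlation none of these 7 genes was the closest, and 0 to 2 of the 3 closest were shared.

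In the stem cells all 9 members were abundant at D0 and fell by D8 in both genotypes. Unless a leave-out is named, each adjusted p for cells comes from the same edgeR test over 14629 genes. In WT, 9 of 9 were called lower and none higher, where 27.9% of all genes were called higher and 29.3% lower. In KO, 9 of 9 were called lower and none higher, against 33.4% higher and 31.1% lower. The median log2 change of the members was -5.58 in WT and -5.51 in KO, and of all genes -0.05 and 0.05. Of 8 neural progenitor markers, 7 were called higher in each genotype. The WT and KO changes are separate comparisons, and no call of either depended on a single library.

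**Figure D4:**
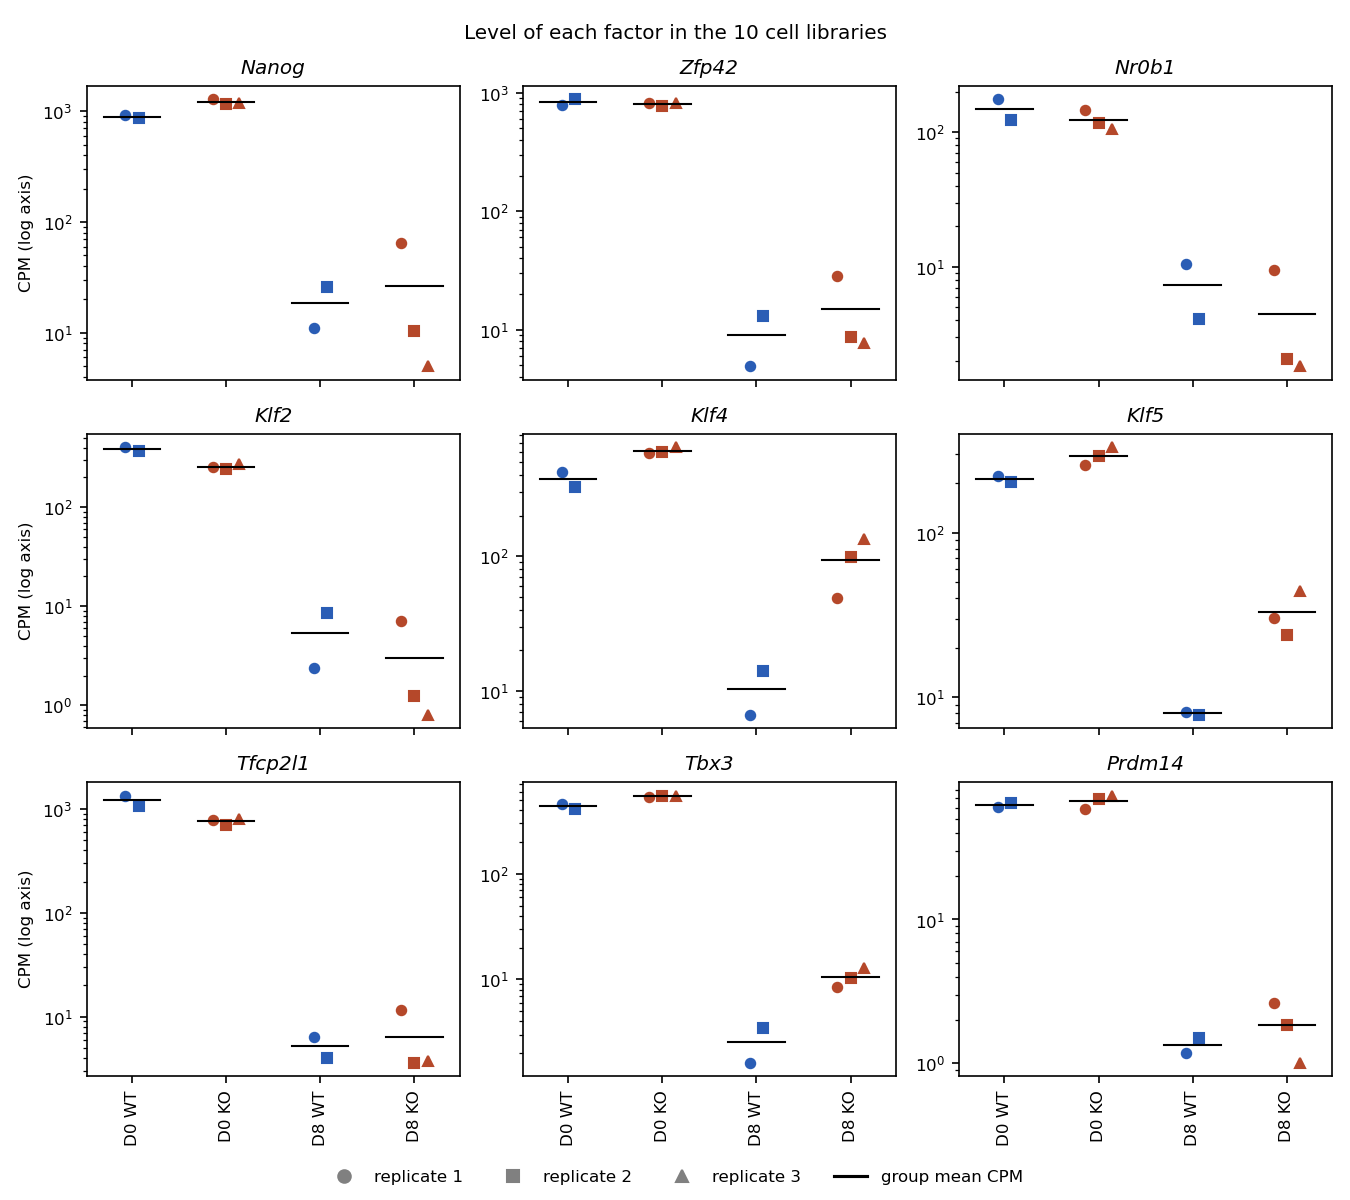
Level of each factor in CPM on a log axis in the 10 cell libraries, grouped along the horizontal axis by day and genotype. Points are libraries (blue WT, red KO; circles, squares and triangles are replicates 1, 2 and 3) and black lines group means; Klf4, Klf5 and Tbx3 are higher in all 3 KO libraries than in both WT libraries at D8.

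Tfcp2l1 fell most in WT. It measured 1352 and 1078 CPM at D0 and 6.36 and 3.97 CPM at D8, a log2 change of -7.90 ± 0.55 (adjusted p = 9.75e-07). In KO it measured 793, 698 and 810 CPM at D0 and 11.7, 3.60 and 3.73 CPM at D8, a change of -6.92 ± 0.42 (adjusted p = 2.69e-07). Nanog went from 922 and 867 CPM to 11.1 and 25.9 CPM in WT, and from 1283, 1163 and 1200 CPM to 64.8, 10.3 and 4.95 CPM in KO. Its changes were -5.58 ± 0.97 and -5.51 ± 0.78. Zfp42 went from 793 and 880 CPM to 4.88 and 13.1 CPM in WT, and from 822, 776 and 815 CPM to 28.4, 8.64 and 7.77 CPM in KO. Changes of Zfp42 were -6.51 ± 0.64 and -5.75 ± 0.50.

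Prdm14, unlike in the embryo, was well measured at D0, with 60.4 and 64.1 CPM in WT and 58.3, 68.8 and 72.6 CPM in KO, with log2 changes of -5.50 and -5.18. Nr0b1 had 175 and 122 CPM in WT and 147, 116 and 105 CPM in KO at D0, with changes of -4.39 and -4.80. Klf2 had 400 and 366 CPM in WT and 254, 245 and 272 CPM in KO at D0, with changes of -6.08 and -6.41. The groups of D0 and D8 did not overlap for any member.

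The other naive genes fell with them: 15 of 16 were called lower in WT and 15 of 16 in KO, Dppa3 being the exception in both. All 8 tested genes of LIF and STAT3 signalling were called lower in WT, among them Stat3 (-2.22) and its feedback inhibitor Socs3 (-3.26). In KO 6 were called lower and 1 higher. Of 12 other Kruppel-like factors, 2 were called higher and 5 lower in WT, with Klf9 changing by -4.2 and Klf12 by 2.03.

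Between KO and WT at D0, 0 of 9 members were called by edgeR or DESeq2, and 0 had an unadjusted p under 0.05. Of all genes, 0.185% were called higher and 0.0889% lower. The estimate of spread is shared over all cell libraries, and replicates differed less at D0 than at D8. Chi-square per degree of freedom was 3.78 to 7.30 within the D0 groups and 12.5 to 63.9 within the D8 groups. The lack of calls at D0 does not show that levels were equal. For 6 members the D0 libraries of the genotypes did not overlap. The share of all genes without overlap was not counted, so that number says nothing particular to the members. A fit of only the D0 libraries called 6 members. It also called 1099 of all 13076 genes tested higher in KO and 934 lower. Klf4 lay at 582, 597 and 644 CPM in KO and 425 and 329 CPM in WT, Tbx3 at 533, 542 and 549 CPM in KO and 459 and 412 CPM in WT. Klf5 lay at 258, 293 and 330 CPM in KO and 221 and 203 CPM in WT, and Nanog was also higher in each KO library. Klf2 and Tfcp2l1 were lower in each KO library. All genes of chromosome 14, which carries Klf5, had a median KO minus WT difference of 0.47 at D0, and those of chromosome 6, which carries Nanog, 0.30, against 0.03 over all genes. The part of these chromosome-wide shifts in the levels of Klf5 and Nanog was not tested.

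At D8, 3 of 9 members were called higher in KO than in WT and none lower, against 12.5% and 8.24% of all genes. Klf4 measured 49.1, 98.9 and 134 CPM in KO and 6.65 and 14 CPM in WT. The log2 difference was 3.16 ± 0.42 (adjusted p = 0.00155), an 8.93-fold higher level. Klf5 measured 30.1, 24.0 and 44.4 CPM in KO and 8.13 and 7.83 CPM in WT, a difference of 2.04 ± 0.26 (adjusted p = 0.00130). The median of chromosome 14 was 0.50 in the same comparison. Tbx3 measured 8.56, 10.3 and 12.7 CPM in KO and 1.63 and 3.43 CPM in WT, a difference of 2.0 ± 0.28 (adjusted p = 0.00168). For these 3 genes every KO library was above both WT libraries, and the calls stood in each of the 5 leave-outs. The median difference of the 9 members was 0.51, and of all genes 0.02.

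The other 6 members were not called, and their KO libraries were split. KO replicate 1 was the highest of the 3 for Nanog, Zfp42, Nr0b1, Klf2, Tfcp2l1 and Prdm14, and the lowest for Klf4 and Tbx3. The same library had more Pou5f1, at 76.9 CPM against 29.7 and 21.3 CPM in the other KO libraries and 17.1 and 45.6 CPM in WT. Without KO replicate 1, 6 of 9 members were called: Nanog became lower in KO by -1.31 (adjusted p = 0.0232), Nr0b1 by -1.85 (adjusted p = 0.0123) and Klf2 by -2.47 (adjusted p = 0.00447). Klf4, Klf5 and Tbx3 stayed higher by 3.46, 2.10 and 2.12. The shares of all genes given above belong to the fit with this library, so the added calls cannot be read as particular to the members. As a share of the mean level at D0, Klf4 stood at 8.09, 16.3 and 22.1% in the KO libraries and at 1.76 and 3.72% in WT. Klf2 stood at 2.75, 0.480 and 0.314% in KO and at 0.617 and 2.21% in WT.

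**Figure D5:**
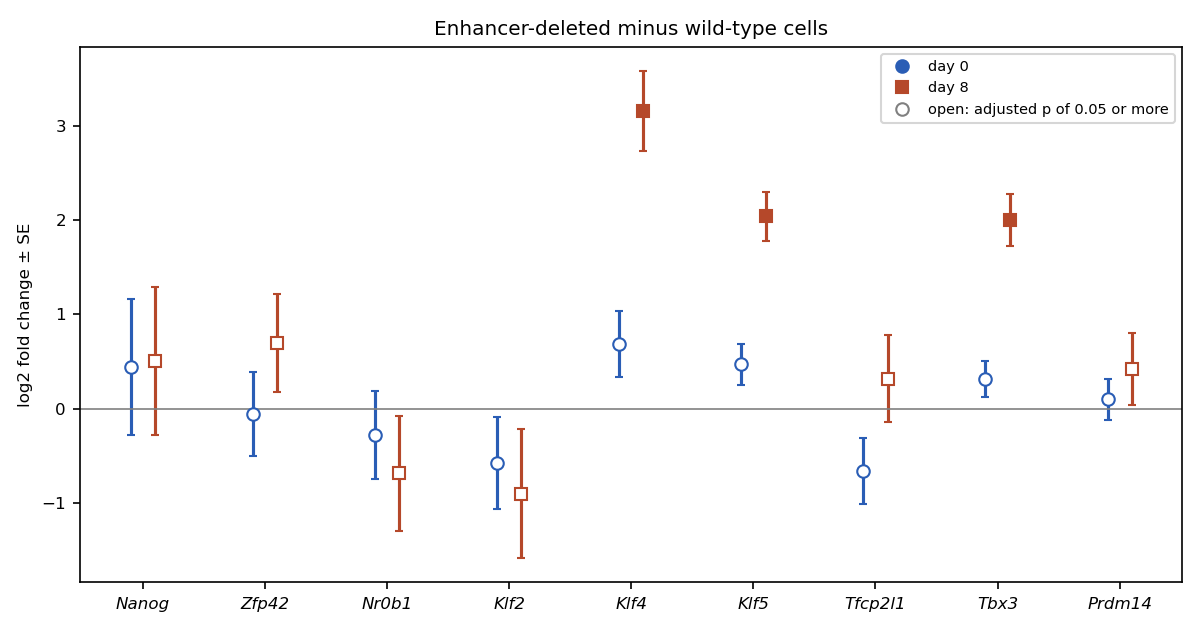
Difference between KO and WT cells at D0 (blue circles) and D8 (red squares) for the 9 factors, as log2 fold change ± SE on the vertical axis. Filled symbols have an adjusted p under 0.05; at D8 they are Klf4, Klf5 and Tbx3, and at D0 there are none.

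Other genes at D8 bear on the same libraries. Visceral endoderm markers, some of which also mark other endoderm (Sox17, Gata4), were called higher in KO for 5 of 8 tested and lower for 0, with a summed level of 290, 455 and 642 CPM in KO and 62.4 and 69.1 CPM in WT. Sox17, an endoderm factor, measured 125, 263 and 352 CPM in KO and 29.9 and 30.0 CPM in WT. Neural progenitor markers were called lower for 4 of 8 (Nes, Neurog2, Tubb3 and Hes5) and higher for 0, with sums of 544, 774 and 826 CPM in KO and 1562 and 1571 CPM in WT. In the order of the KO libraries, Klf4 and Tbx3 were lowest in replicate 1 and highest in replicate 3. The endoderm and neural sums had this order too, as did the germ cell sum (149, 187 and 225 CPM). In WT the germ cell sum was lower, at 39.5 and 91.6 CPM. An order of 3 libraries cannot tell these sums apart, and Klf5 was lowest in replicate 2. The part of these cell type differences in the levels of Klf4, Klf5 and Tbx3 was not tested. Of 8 genes of LIF and STAT3 signalling, 3 were called higher in KO and 0 lower: Lif (2.22), Socs3 (1.58) and Stat3 (1.18). Of the 16 other naive genes 2 were called higher and 2 lower, with Esrrb not called, and of the 12 other Kruppel-like factors 2 were called higher, Klf6 (1.36) and Klf9 (0.96), and 1 lower, Klf12 (-1.42).

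The change of the KO minus WT difference from D0 to D8 was called for 3 of 9 members, against 5.76% of all genes: Klf4 (2.47 ± 0.52, adjusted p = 0.0275), Klf5 (1.57 ± 0.33, adjusted p = 0.0266) and Tbx3 (1.69 ± 0.34, adjusted p = 0.0235). These 3 calls were close to the threshold. Among the 10 leave-outs, Klf4 stayed called in 2, Klf5 in 3 and Tbx3 in 4, with adjusted p up to 0.110, 0.111 and 0.0994. No call of the 3 was left without D0 KO replicate 2 or 3, without D0 WT replicate 1 or 2 or without D8 WT replicate 1. The estimates ranged from 1.97 to 3.09 for Klf4, from 1.22 to 1.70 for Klf5 and from 1.21 to 2.33 for Tbx3.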

How the data were processed

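RNA libraries of dissected embryos (18) and of stem cells and their neural progeny (10) were analysed, and the genomic libraries of the series were not used here. The authors deposited gene-level raw counts, 1 table for the embryos and 1 for the cells. Per the labels' protocols, embryo libraries were made with Nextera XT and cell libraries with a NEBNext RNA kit. Tools listed in the submitters' processing notes, with no role attached, are BWA, TopHat2 2.0.9 and CASAVA 1.8, and the build listed is mm10. The counter, the annotation and whether counting used strand: not given in the sources used here. RefSeq lists near-identical copies of Nanog and Zfp42 that are not rows of the tables, so reads of these genes may be shared with copies. Columns were matched to samples by name, and 6 embryo columns that matched none were not used.

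Each table was fitted as a whole with edgeR 4.0.16 in R 4.3.3 (filterByExpr with a minimum count of 10 and a total of 15, TMM factors 0.659 to 1.37 in embryos and 0.887 to 1.16 in cells, robust quasi-likelihood test, no replicate block), and a gene was called at a Benjamini-Hochberg adjusted p under 0.05. The script was tested on simulated counts. Each SE was taken as |log2 fold change| divided by the root of the F statistic. For a group at 0 counts, a floor of 3 counts over that group gave a bound on the fold, covering counting error only. Replicates differed by more than sampling noise (chi-square per degree of freedom of 40.4 to 135 in embryos and 3.78 to 63.9 in cells), so each counted once. Alternatives were DESeq2 1.42.0, total-count scaling, other filters, a replicate block, the compared groups alone and leaving out each library.

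All members were eligible to be named. From the other lists, up to 3 called genes with the smallest p in each direction and the 2 not called that head the list were eligible, with the 3 genes closest in pattern to each member. Genes named beyond this, for the state of a library or a list of 5 or fewer, were chosen after their values were seen. The members and all lists were chosen with earlier results of these data known. Promoter sequences were taken from RefSeq (GRCm38.p6).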

Additional observations from a re-analysis of the deposited data

Results flagged for a closer look

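The KO minus WT difference was tested for a change between D0 and D8, and 3 members passed: Klf4 by 2.47, Klf5 by 1.57 and Tbx3 by 1.69 on the log2 scale, each larger at D8, where 5.76% of all genes passed. These calls stood in only 2, 3 and 4 of 10 leave-outs, and 0 to 5 members were called when 1 library was left out. For these genes the libraries of the genotypes did not overlap at D8, nor at D0, where KO was also higher without a call. The share of all genes without overlap was not counted. At D8 the summed visceral endoderm and germ cell markers were higher and the neural markers lower in every KO library than in WT. The part of these in the levels was not tested.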

How the results depend on the processing

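Of 70 gene values with 869 alternatives, 796 kept direction and side of the threshold, 48 were no longer called, 25 became called and 0 reversed. Nr0b1 between AM and P had no counts left without P replicate 1 and gave no value.

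Counts of called members moved by over 1.5 times as follows. Without the filter, P minus A at E7.5 gave 2 (1 in the reported fit), AM minus A 3 (1), the E7.0 mean minus Epi 1 (0) and E7.5 A minus Epi 3 (0). With the compared groups alone, these were 0 for P minus A and for AM minus A, 1 for E7.5 A minus Epi (0), 1 for AM minus Epi (2), 1 for ExE over time (0) and 6 for KO minus WT at D0 (0). DESeq2 gave 2 for P minus A, 2 for AM minus A and 1 for E7.5 A minus Epi, and total-count scaling gave 1 for E7.5 A minus Epi and 1 for AM minus Epi. Calls over all genes moved in these fits too. For AM minus A they were 166 higher and 60 lower of 14403 in the reported fit and 487 and 166 of 22036 without the filter. They were 1 and 2 of 13147 with the compared groups alone and 398 and 183 of 14403 in DESeq2. The cause was not tested.

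Leaving out 1 library gave 3 to 4 called at E6.5 between ExE and Epi, 6 to 7 at E7.0, 4 to 6 at E7.5, 0 to 1 for P minus A at E7.5, 1 to 2 for AM minus A, 0 to 2 for AM minus Epi, 9 to 9 for each D8 minus D0 change, 3 to 6 for KO minus WT at D8 and 0 to 5 for its change from D0. The remaining comparisons stayed at 0. Where an arm was left with 1 library, it was assumed to vary like the other groups.

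With the replicate number as a block, 6, 8 and 7 members were called between ExE and the rest at the 3 stages. There were 2 for AM minus A and 1 for E7.5 A minus Epi, and no other count of members changed. Calls over all genes rose as well. For ExE they went from 531 higher and 755 lower to 776 and 1030 at E6.5. At E7.0 they went from 1442 and 1173 to 1722 and 1527, and at E7.5 from 1934 and 1139 to 2312 and 1445. Nothing in the labels pairs the replicate numbers: deviations of same-numbered libraries correlated at -0.10 to 0.56 over 72 embryo pairs (median 0.13, 40 over 0.1) and -0.04 to 0.17 over 13 cell pairs (median 0.02, 3 over 0.1). With 2 libraries a group, both replicates give the same value, so the embryo pairs are not all distinct. Among E7.5 A, AM and P the values were 0.36 to 0.56.

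Depth limits Klf2 and Prdm14 in embryos, where most libraries outside ExE had a few counts.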
